A study of Sus scrofa with 12 samples.

Results

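The genes described here encode regulators of G-protein signalling (RGS proteins). The members were chosen by symbol, with earlier results of these data known: RGS2, RGS3, RGS4, RGS5, RGS10, RGS12 and RGS16. Of these 7, 6 could be matched to a row among the 21153 genes of the count table, and all 6 were among the 12444 genes that passed the filter on low counts. No identifier in the symbol table carried the name RGS3, so RGS3 is not analysed here. The RNA came from primary cultures of pig coronary artery smooth muscle, from 3 animals and between passages 6 and 11, which the labels describe as differentiated and contractile. All groups were plated at 60 cells/mm2 in medium with 10% fetal calf serum. From 24 h after plating, for 4 h, the cells were given 30 ng/ml PDGF-BB (the B homodimer of platelet-derived growth factor, a smooth muscle mitogen), 1 µg/ml S100A4, the 2 together, or neither as control. S100A4, which the design text spells oS100A4, binds calcium inside cells and is also secreted. Each of the 4 groups had 3 libraries.

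Hormones and vasoactive peptides act on smooth muscle through receptors that load GTP onto G-protein alpha subunits. RGS proteins bind the GTP-loaded alpha subunit and speed up GTP hydrolysis, which ends the signal. RGS2, RGS4, RGS5 and RGS16 are small proteins of the same subfamily: RGS2 prefers alpha subunits of the Gq class, and the others act on both Gi and Gq. In arteries RGS2 is a target of the kinase that relays nitric oxide signals, and RGS5 is known as a marker of pericytes and arterial smooth muscle. RGS10 and RGS12 belong to another subfamily that acts on Gi, and RGS12 is a large scaffold with several further domains. RGS4, RGS5 and RGS16 proteins are short-lived substrates of the N-degron pathway, so a level of their mRNA is not a level of protein.

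Library totals were 21455021 to 32448438 counts. Levels are given in CPM, read counts scaled to the library size with TMM factors, and at the lowest total 1 CPM is about 21.5 counts. Transcript lengths were not used, so levels are compared between libraries and not between genes. The 3 libraries of a group were numbered 1 to 3, and same-numbered libraries of different groups deviated together from their group means. Each member is therefore given from 2 fits of the whole table: one on the 4 groups alone, and one with replicate number as a block. Smooth muscle markers were present in every library: ACTA2, smooth muscle alpha-actin, ranged from 6554 to 17453 CPM, the myosin gene MYH11 from 258 to 1813 CPM and calponin, CNN1, from 406 to 1182 CPM. Other smooth muscle markers were low throughout, TAGLN at 3.21 to 7.21 CPM and MYOCD at 2.82 to 7.45 CPM. The 4 replicate 2 libraries stood apart. Their summed level of 8 smooth muscle markers was 7917 to 9303 CPM against 17548 to 21892 CPM in the other 8 libraries. Most of this sum was ACTA2 (6554 to 7617 against 14271 to 17453 CPM). MYH11, CNN1, TAGLN and DES were also lower in replicate 2 without overlap. SMTN (219 to 402 against 276 to 538 CPM), LMOD1 and MYOCD overlapped with the other libraries. The summed level of 7 pericyte markers was 712 to 863 CPM in replicate 2 against 2027 to 2794 CPM. Of the pericyte markers ABCC9 and HIGD1B, both at low levels, were not lower there (means 1.15 against 1.01 and 0.264 against 0.17 CPM). The 6 fibroblast markers summed to 947 to 1102 CPM in replicate 2 against 293 to 508 CPM, most of it LUM (668 to 801 against 182 to 379 CPM). MFAP5 of the same list went the other way, at 20.4 to 23.4 against 44.4 to 73.9 CPM. The 5 endothelial markers in the table summed to 127 to 201 against 55.2 to 155 CPM, with KDR at 0 to 4 counts and ERG the highest of them. Of 6 macrophage markers PTPRC was at 0 in all 12 libraries, and its list summed to 7.25 to 11.5 CPM; all 3 T cell markers were at 0. In bulk RNA, fewer cells of a type and less RNA per cell cannot be told apart.

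RGS4 and RGS16 had the largest fitted changes. RGS4 rose with PDGF-BB, and with S100A4 alone it passed no test. RGS16 was higher in each treated library than in the same-numbered control, and highest where both proteins were present. RGS12 fell 1.34-fold with both proteins, a call on groups alone that was lost when libraries were left out. With PDGF-BB alone its call also depended on the settings. RGS2 and RGS5 passed in none of the 6 comparisons in either fit; their levels differed mainly between replicate numbers.

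**Figure D1:**
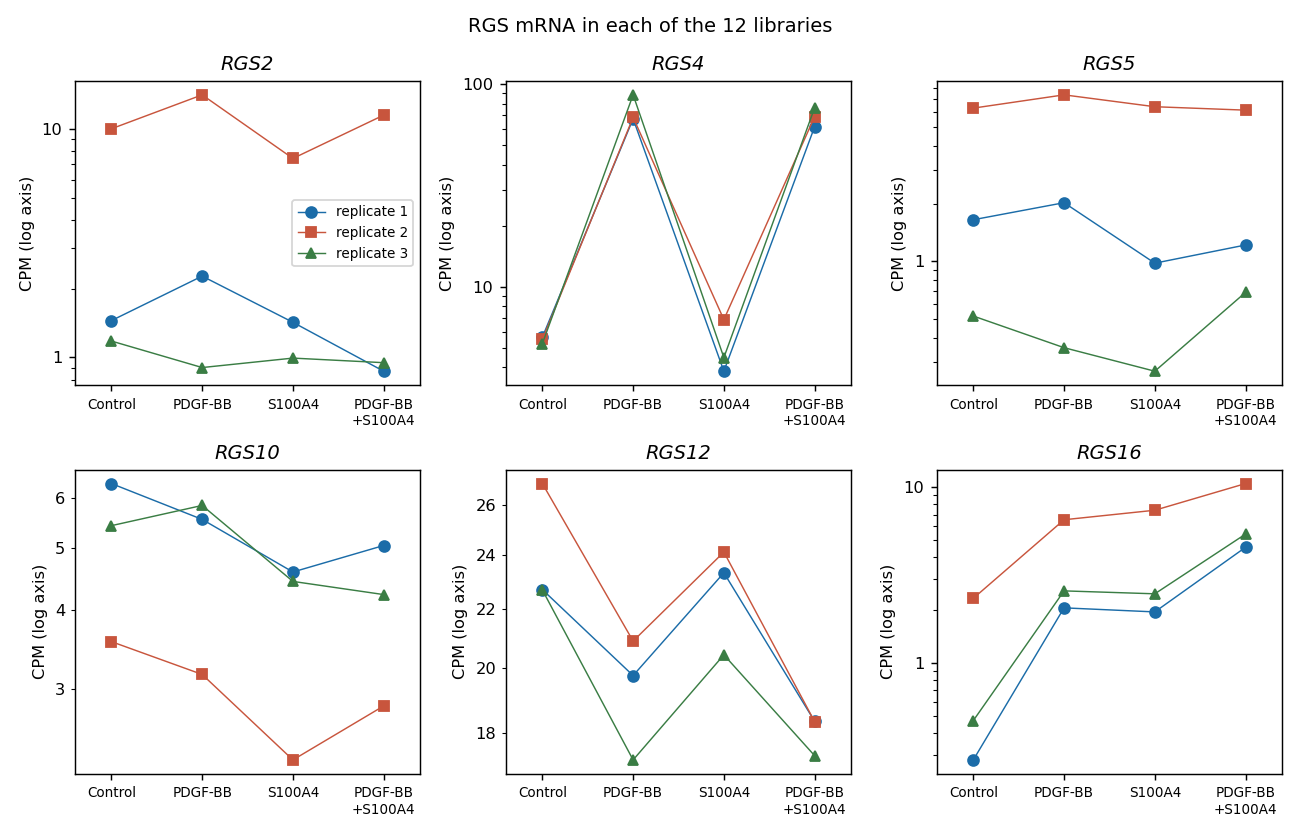
RNA level of the 6 measured RGS genes (CPM, log axes that differ between panels) in the 4 groups; each point is a library and lines join libraries with the same replicate number. RGS4 lies at 61.5 to 88.3 CPM in all 6 libraries with PDGF-BB and at 3.83 to 6.88 CPM in the 6 without it, whereas RGS2 and RGS5 separate by replicate 2.

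RGS4 (ENSSSCG00000006335, chromosome 4, 87383336 to 87390478 in Sscrofa11.1) was at 5.63, 5.49 and 5.23 CPM in control replicates 1, 2 and 3. With PDGF-BB it was at 67.3, 68.4 and 88.3 CPM. With S100A4 alone the values were 3.83, 6.88 and 4.47 CPM, and with both proteins 61.5, 68.9 and 76.2 CPM. The libraries with PDGF-BB were all far above those without it, and within each of these 2 sets the groups overlapped. These levels rest on 86 to 178 counts per library without PDGF-BB and 1413 to 2739 counts with it. The group means ± SD were 5.45 ± 0.203 CPM in control, 74.7 ± 11.8 with PDGF-BB, 5.06 ± 1.61 with S100A4 and 68.9 ± 7.38 with both (n = 3 each).

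In edgeR's quasi-likelihood test RGS4 rose 13.7-fold with PDGF-BB (log2 fold change 3.77 ± 0.21 SE, adjusted p = 4.1e-05) and 12.6-fold with both proteins (3.66 ± 0.21, adjusted p = 9.1e-06). Adding PDGF-BB to S100A4 raised it by 3.76 ± 0.21 (adjusted p = 4.3e-05). All 3 same-numbered pairs were higher in each of these comparisons, by 11.8-, 12.3- and 16.6-fold for PDGF-BB against control. S100A4 alone gave −0.11 ± 0.20, with a 95% interval of −0.55 to 0.34, and the difference did not pass (adjusted p = 1). Nor did that between both proteins and PDGF-BB alone (−0.12 ± 0.19, interval −0.53 to 0.30). The interaction, which is the S100A4 effect with PDGF-BB minus that without it, was −0.01 ± 0.28 (interval −0.63 to 0.61). The order of the mean levels was PDGF-BB, both proteins, control and S100A4. Neighbours in that order differed beyond their spread only between both proteins and control. The 5 summed endothelial markers were at 120 to 201 CPM with PDGF-BB, 133 to 190 with both, 59.5 to 136 with S100A4 and 55.2 to 127 in control. On groups alone 1 of the 4 tested was called higher with PDGF-BB, against 9.09% of all tested genes. ERG alone was at 101 to 142 CPM with PDGF-BB and 35.7 to 73.0 CPM in control. The others did not share its rise: PECAM1 was at 3.68 to 24.0 CPM with PDGF-BB and 3.58 to 19.8 CPM in control. CDH5 was at 15.3 to 33.8 and 15.9 to 32.2 CPM, and TEK reached at most 1.42 CPM in any library. The part of these marker levels in the RGS4 result was not tested.

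RGS16 (ENSSSCG00000015550, chromosome 9, 123913179 to 123919119) was a low-level transcript. In control it was at 0.282, 2.34 and 0.472 CPM in replicates 1, 2 and 3, from 7, 69 and 10 counts. Control replicate 1 was under the minimum count of 10, so the control libraries alone would not have passed the filter. RGS16 passed it through the treated libraries, where it is high, and its tests against control carry that limit. The exact Poisson 95% intervals, which cover counting error only, were 0.113 to 0.58 CPM for replicate 1 and 0.226 to 0.867 CPM for replicate 3. With PDGF-BB the values were 2.06, 6.55 and 2.58 CPM, with S100A4 1.96, 7.42 and 2.48 CPM, and with both proteins 4.57, 10.5 and 5.43 CPM. Replicate 2 was the highest library of every group. Its control value lay among the singly treated values of replicates 1 and 3, so control overlapped with each single treatment, whereas control and the combination did not overlap. The order control, single treatments, combination held within each replicate number.

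On groups alone RGS16 rose only with both proteins among its 5 pairwise comparisons (6.48-fold, log2 2.70 ± 0.84, adjusted p = 0.045). This call was lost without any 1 library of either group other than control replicate 2 (adjusted p = 0.065 to 0.14). PDGF-BB gave 1.82 ± 0.82 (adjusted p = 0.19) and S100A4 1.91 ± 0.83 (adjusted p = 0.78). With the replicate block all 5 passed. RGS16 rose 3.58-fold with PDGF-BB (1.84 ± 0.24, adjusted p = 2.8e-05), 3.74-fold with S100A4 (1.90 ± 0.25, adjusted p = 0.00015) and 6.79-fold with both (2.76 ± 0.23, adjusted p = 2.1e-07). The combination exceeded PDGF-BB alone by 0.92 ± 0.18 (block adjusted p = 0.0053) and S100A4 alone by 0.86 ± 0.18 (block adjusted p = 0.0014). Without replicate 3 of all groups the first of these did not pass (0.86, block adjusted p = 0.091).

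The RGS16 change within same-numbered pairs was smallest in replicate 2. PDGF-BB against control gave 5.96-, 2.74- and 4.84-fold in replicates 1, 2 and 3, S100A4 5.66-, 3.10- and 4.66-fold, and both proteins 12.9-, 4.39- and 10.0-fold. Replicate 2 had the highest RGS16 level in control. The joint change was below the sum of the single log2 changes in all 3 replicate numbers, by 1.38, 0.95 and 1.17 on the log2 scale. That interaction did not pass (block −0.98 ± 0.31, unadjusted p = 0.0074, adjusted p = 0.35; groups alone −1.04 ± 1.12, adjusted p = 1).

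**Figure D2:**
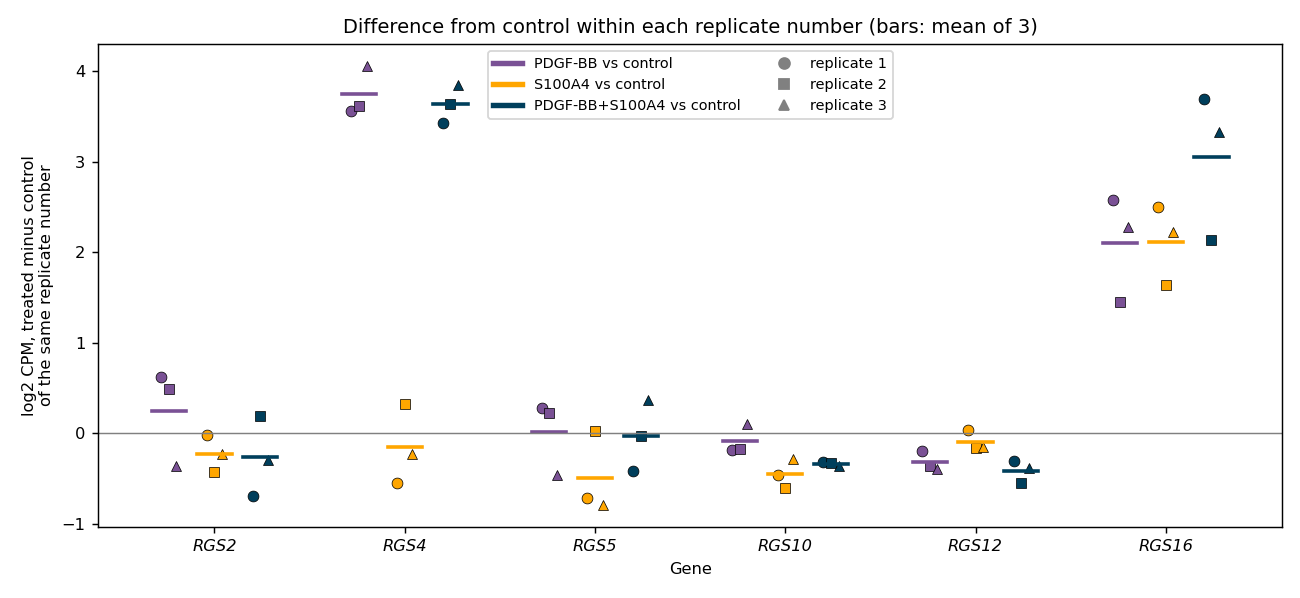
Log2 CPM of each treated library minus that of the control library with the same replicate number, for 6 RGS genes and 3 treatments; bars are means of 3 pairs. RGS4 shows differences of 3.43 to 4.06 in both groups with PDGF-BB, and RGS16 differences of 1.45 to 3.69 in all 9 pairs.

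RGS12 (ENSSSCG00000008698, chromosome 8, 1971390 to 2074970) was at 22.7, 26.9 and 22.7 CPM in control replicates 1, 2 and 3. It was at 19.8, 20.9 and 17.2 CPM with PDGF-BB, 23.3, 24.1 and 20.4 CPM with S100A4, and 18.4, 18.3 and 17.4 CPM with both. The 6 libraries with control or S100A4 overlapped each other, and the 3 with both proteins lay below all of them. The PDGF-BB libraries were below all control libraries but overlapped with those of S100A4. RGS12 fell with both proteins (−0.42 ± 0.10, adjusted p = 0.014), 1.34-fold below control. That call did not hold without replicate 3 of the combination (adjusted p = 0.053), nor without replicate 1, 2 or 3 of all groups. PDGF-BB alone gave −0.32 ± 0.10 (adjusted p = 0.06), and both proteins against S100A4 gave −0.33 ± 0.10 (adjusted p = 0.056). PDGF-BB alone passed with upper-quartile scaling, with a stricter filter and in DESeq2 (adjusted p = 0.033, 0.039 and 0.03), and not under the other alternatives without the block (0.057 to 0.34). With the block all 3 passed (block adjusted p = 8.6e-05, 0.00078 and 0.00093), with 3 of 3 pairs lower in each. S100A4 alone gave −0.09 ± 0.10 (interval −0.32 to 0.13; block adjusted p = 0.42). The 8 summed smooth muscle markers overlapped between groups, at 9303 to 21892 CPM in control, 8020 to 19892 with PDGF-BB, 7923 to 18685 with S100A4 and 7917 to 19238 with both. On groups alone 1 of the 8 passed with PDGF-BB and 1 with both, lower each time, where 5.62% and 8.75% of all tested genes were called lower. With the block 1 was higher and 4 lower with PDGF-BB, against 24.3% and 24.5% of all tested genes. The block called 4 lower with S100A4, against 4.28%, and 1 higher and 3 lower with both, against 27.5% and 28.6%. Smoothelin, SMTN, was at 402 to 538 CPM in control, 245 to 308 with PDGF-BB, 299 to 366 with S100A4 and 219 to 279 with both. Mean LMOD1, MYH11 and MYOCD were also lower with PDGF-BB than in control (240 against 380, 849 against 1150 and 3.76 against 5.68 CPM). DES went the other way (365 against 259 CPM). ACTA2, CNN1 and TAGLN differed little (13172 against 13390, 854 against 890 and 5.64 against 5.42 CPM). Only SMTN did not overlap between control and PDGF-BB. The part of these shifts in the RGS12 and RGS16 results was not tested.

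RGS10 (ENSSSCG00000039838, chromosome 14, 129386717 to 129424150) was at 6.32, 3.56 and 5.42 CPM in control replicates 1, 2 and 3, and at 5.55, 3.16 and 5.84 CPM with PDGF-BB. It was at 4.58, 2.32 and 4.43 CPM with S100A4 and at 5.05, 2.82 and 4.22 CPM with both. Replicate 2 was the lowest library of each group, and all 4 groups overlapped. RGS10 did not pass on groups alone. With the block it fell with S100A4 (−0.44 ± 0.12, adjusted p = 0.025) and with both proteins (−0.34 ± 0.12, adjusted p = 0.021), lower in 3 of 3 pairs each. Neither call held without replicate 1, 2 or 3 of all groups (block adjusted p = 0.065 to 0.20) or in DESeq2 with replicate number as a term (adjusted p = 0.10 and 0.079). For PDGF-BB alone the block gave −0.08 ± 0.11 (interval −0.31 to 0.16).

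RGS2 (ENSSSCG00000037241, chromosome 10, 936836 to 940083) was at 1.45, 10.0 and 1.18 CPM in control replicates 1, 2 and 3. With PDGF-BB it was at 2.27, 14.1 and 0.903 CPM, with S100A4 at 1.42, 7.42 and 0.993 CPM, and with both at 0.87, 11.5 and 0.948 CPM. Replicate 2 was 6.14 to 12.6 times the mean of replicates 1 and 3 in each group, and the groups overlapped throughout. No comparison passed. The widest difference from control with the block was 0.41 ± 0.19 for PDGF-BB (interval −0.01 to 0.83, unadjusted p = 0.054, adjusted p = 0.097), with 2 of 3 pairs higher. S100A4 gave −0.32 ± 0.21 (interval −0.78 to 0.14). The intervals on groups alone spanned −3.41 to 3.45 over the 3 comparisons with control, so changes of several-fold were not detectable there.

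RGS5 (ENSSSCG00000037821, chromosome 4, 87286953 to 87340816) was likewise highest in replicate 2. Control values were 1.65, 6.31 and 0.519 CPM in replicates 1, 2 and 3, PDGF-BB values 2.02, 7.40 and 0.355 CPM, S100A4 values 0.979, 6.41 and 0.267 CPM, and values with both 1.22, 6.16 and 0.689 CPM. The order replicate 2, replicate 1, replicate 3 was the same in every group, and replicate 3 rested on only 7 to 16 counts. No comparison passed: with the block the differences from control were 0.19 ± 0.20 for PDGF-BB (interval −0.24 to 0.61), −0.21 ± 0.21 for S100A4 (interval −0.66 to 0.25) and −0.08 ± 0.21 for both (interval −0.53 to 0.38). The replicate 2 libraries, where RGS2 and RGS5 were highest, had lower summed CPM of pericyte and smooth muscle markers and higher summed CPM of fibroblast markers. Most of the smooth muscle sum was ACTA2, and SMTN, LMOD1 and MYOCD overlapped with the other libraries. ABCC9, HIGD1B and MFAP5 were exceptions, as given above. The part of these marker differences in the levels of RGS2, RGS5, RGS10 and RGS16 was not tested.

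**Figure D3:**
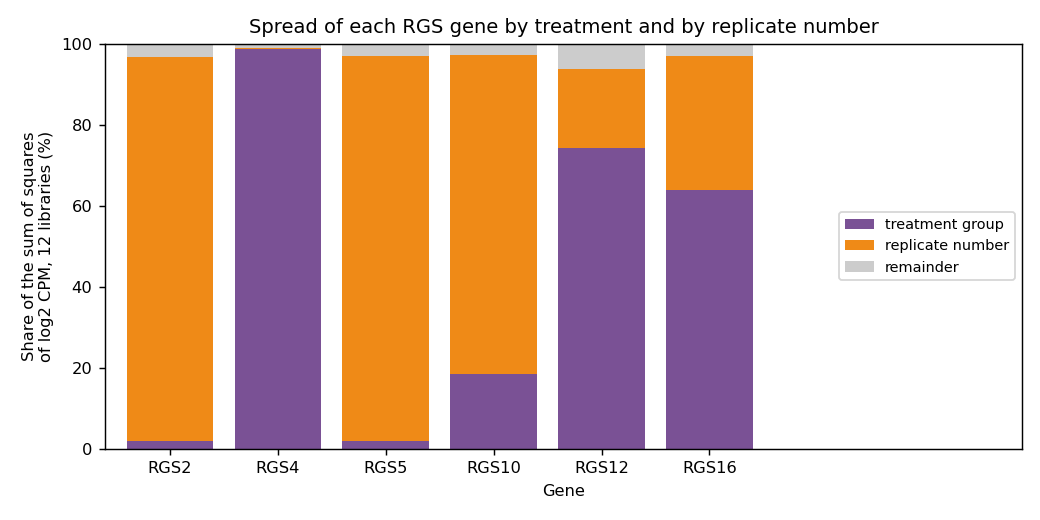
Share of the sum of squares of log2 CPM over the 12 libraries that goes with treatment group, with replicate number and with the remainder, for each of the 6 RGS genes (bars sum to 100%). RGS4 varies with treatment (98.8%), and RGS2 and RGS5 with replicate number (94.8% and 95.2%).

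Split in this way, treatment held 98.8% of the sum of squares of RGS4, 74.2% of RGS12, 63.9% of RGS16, 18.4% of RGS10, and 1.90% and 1.85% of RGS2 and RGS5. Replicate number held 94.8% for RGS2, 95.2% for RGS5, 78.8% for RGS10, 33.1% for RGS16, 19.6% for RGS12 and 0.322% for RGS4. Over all tested genes the medians were 36.9% for treatment and 40.9% for replicate number. For RGS4 replicate 2 was 0.879 to 1.66 times the mean of the other 2 libraries of its group, whereas for RGS5, its neighbour on the chromosome, it was 5.82 to 10.3 times.

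As counts, PDGF-BB against control called 1 of 6 members on groups alone (RGS4 higher), where 14.7% of all tested genes were called, 9.09% higher and 5.62% lower. With the block it called 3 of 6 (RGS4 and RGS16 higher, RGS12 lower), where 48.8% of all genes were called, 24.3% higher and 24.5% lower. On groups alone the members' median log2 change was 0.32 with PDGF-BB, −0.13 with S100A4 and −0.01 with both, against −0.02, −0.02 and −0.03 over all tested genes. S100A4 called 0 of 6 in edgeR on groups alone (0.563% of all genes, 0.554% higher and 0.00804% lower), and 0 in DESeq2. At an unadjusted p under 0.05 there was 1 member, RGS16, against 767 of the 12444 tested genes. With the block S100A4 called 2 (RGS16 higher, RGS10 lower), against 10.7% of all genes, 6.46% higher and 4.28% lower. Both proteins called 3 of 6 (RGS4 and RGS16 higher, RGS12 lower), against 22% of all genes, 13.2% higher and 8.75% lower. With the block it was 4 (also RGS10 lower), against 56.1%, 27.5% higher and 28.6% lower. These 3 comparisons share the control libraries.

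Both proteins against PDGF-BB called 0 members in edgeR (0.273% of all genes, with 0% lower), and 0 in DESeq2. At an unadjusted p under 0.05 there were 0 members, against 599 of the 12444 tested genes. With the block this comparison called 1 (RGS16 higher), against 7.14% of all genes, 5.11% higher and 2.03% lower. Both against S100A4 called 1 (RGS4 higher), against 15% of all genes, 9.45% higher and 5.51% lower. With the block it called 3 (RGS4 and RGS16 higher, RGS12 lower), against 47.8%, 24.9% higher and 22.9% lower. The interaction called 0 members in edgeR in either fit, against 0% of all genes on groups alone and 0.113% with the block (0.0161% higher and 0.0964% lower). At an unadjusted p under 0.05 there were 0 members on groups alone (152 of the 12444 tested genes) and 1 with the block (1183 genes). DESeq2 on groups alone called 0 members. Libraries of the compared groups did not overlap for RGS4 and RGS12 with PDGF-BB against control (29.8% of all tested genes), for RGS4, RGS12 and RGS16 with both proteins against control (35.6%), and for no member with S100A4 against control (9.72%). With both against S100A4 the groups did not overlap for RGS4 and RGS12 (30% of all genes), and with both against PDGF-BB they overlapped for each member (8.69%).

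**Figure D4:**
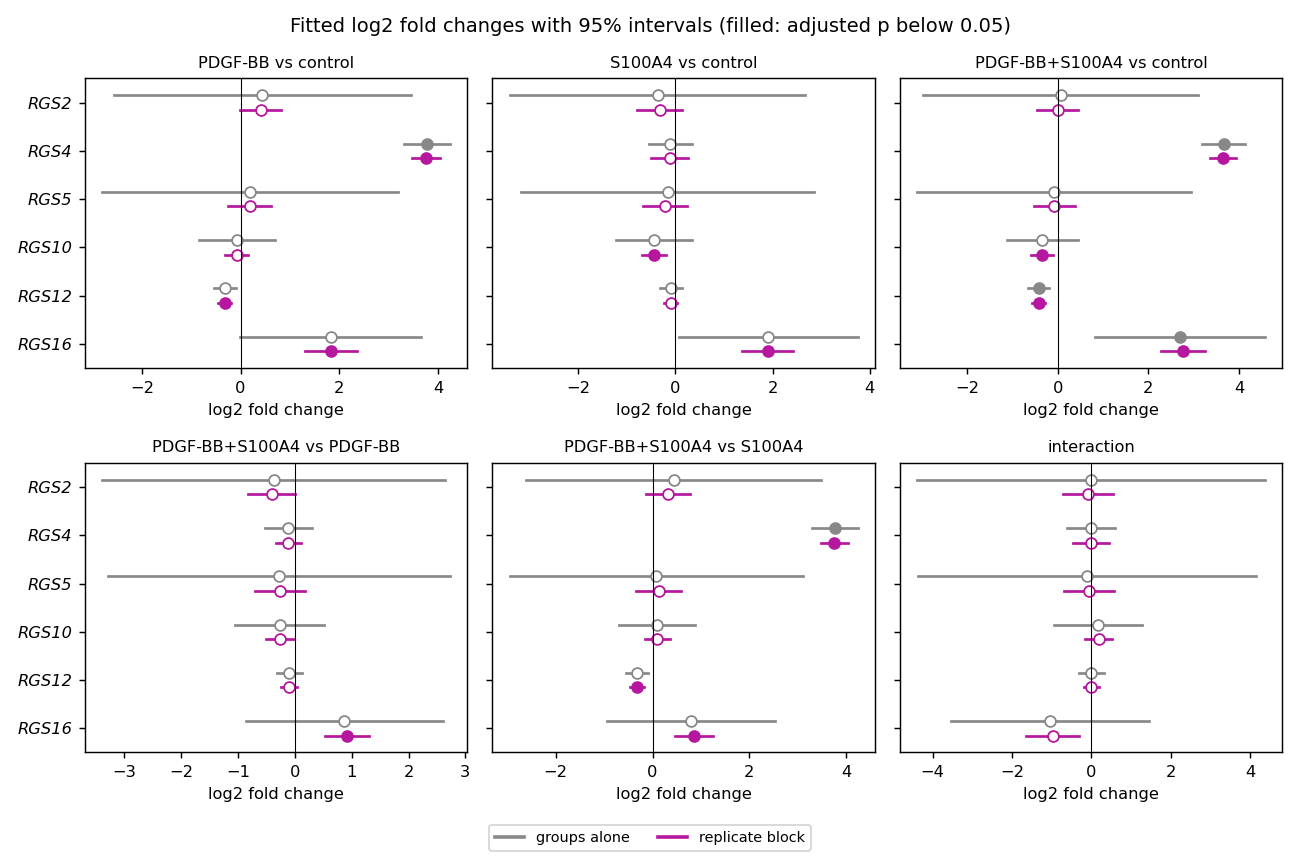
Log2 fold changes with 95% intervals of 6 RGS genes in 6 comparisons, from the fit on groups alone (grey) and with replicate number as a block (magenta); filled points have an adjusted p below 0.05. The intervals of RGS2 and RGS5 on groups alone reach several log2 units to either side of 0, and those of RGS4 stay above 3 in each comparison that adds PDGF-BB.

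The genes with the most similar profile were sought for the members called against control on groups alone, by the root mean square difference between centred log2 CPM values over the 12 libraries, among 10832 other genes with a symbol. Nearest to RGS4 were ITGA2, a collagen-receptor integrin subunit (0.55), ERRFI1, an inhibitor of the EGF receptor (0.56), and DUSP5, an ERK phosphatase (0.57). For scale, the root mean square of RGS4 itself about its mean was 1.90. Their log2 changes with S100A4 were 0.43 ± 0.32, 0.64 ± 0.28 and 0.52 ± 0.45, against −0.11 ± 0.20 for RGS4. Nearest to RGS16 were ANGPTL4, an inhibitor of lipoprotein lipase (0.37), NLRP3, an inflammasome sensor (0.44), and the chemokine gene CCL2 (0.52). RGS12 lay nearest to RDX, which links actin to the membrane, and to the RNA-processing genes HNRNPR and MFAP1 (0.06, 0.07 and 0.07, with 0.19 for RGS12 itself).

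Other genes with an RGS domain were taken from a list of 20, of which 18 were in the table and 11 were tested. On groups alone 2 rose with PDGF-BB and none fell, with both proteins 2 rose and 2 fell, and with S100A4 edgeR called 0 (1 at an unadjusted p under 0.05). The shares of all tested genes, for this list and those that follow, were 9.09% higher and 5.62% lower with PDGF-BB on groups alone. They were 13.2% and 8.75% with both proteins and 0.554% and 0.00804% with S100A4. With the block they were 24.3% and 24.5% with PDGF-BB, 27.5% and 28.6% with both, and 6.46% and 4.28% with S100A4. An unadjusted p under 0.05 was reached on groups alone by 767 of the 12444 tested genes with S100A4 and by 3354 with PDGF-BB. For S100A4 with the block the number was 2904. RGS19, a regulator of Gi signalling, was at 19.6, 22.5 and 23.5 CPM in control and at 28.3, 29.6 and 27.8 CPM with PDGF-BB (0.39 ± 0.08, adjusted p = 0.011), and it rose as much with both proteins (0.42 ± 0.08, adjusted p = 0.005). RGS8, of the same subfamily as RGS4, had 4 to 7 counts per control library, 11 to 29 with PDGF-BB, 8 to 19 with S100A4 and 18 to 20 with both. Its control libraries were all under the minimum count of 10, and it passed the filter through the treated libraries, where it is high. It is among the genes counted as higher, and its fitted differences of 1.66 ± 0.42 with PDGF-BB, 2.00 ± 0.42 with both and 1.52 ± 0.44 with S100A4 (block) are given as values only. The sorting nexins SNX13 and SNX14 fell with both proteins (−0.34 ± 0.08 and −0.43 ± 0.13, adjusted p = 0.017 and 0.042). With the block the list had 4 higher and 2 lower with PDGF-BB, 1 higher with S100A4, and 5 higher and 3 lower with both. RGS18 was at 0 counts in all libraries, and RGS1 and RGS13 reached at most 4 and 5 counts.

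Among 17 tested G-protein subunits none rose and 1 fell with PDGF-BB, and 1 rose and 2 fell with both proteins. The gamma subunit gene GNG11 was at 34.7, 39.9 and 38.1 CPM in control and at 18.7, 24.4 and 24.7 CPM with PDGF-BB (−0.73 ± 0.17, adjusted p = 0.018), and fell by 0.82 ± 0.17 on the log2 scale with both (adjusted p = 0.0076). GNA11, a Gq-class alpha subunit, rose with both (0.30 ± 0.07, adjusted p = 0.012), and the beta subunit gene GNB4 fell (−0.38 ± 0.11, adjusted p = 0.03). With S100A4 edgeR called 0 of the 17 on groups alone (0 at an unadjusted p under 0.05), and with the block GNAQ, the other Gq-class subunit gene named here, rose (0.32 ± 0.06, block adjusted p = 0.004). The block gave 3 higher and 4 lower of 17 with PDGF-BB and 4 higher and 7 lower with both, where 48.8% and 56.1% of all genes were called.

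Of 14 tested effectors 1 rose and 2 fell with PDGF-BB, and 1 rose and 3 fell with both proteins. PLCB3, a phospholipase C activated by Gq, rose (0.39 ± 0.08 and 0.41 ± 0.08, adjusted p = 0.0092 and 0.005), whereas its relative PLCB4 fell with both (−0.72 ± 0.19, adjusted p = 0.022). The guanine nucleotide exchange factors ARHGEF11 and ARHGEF12, which act below G12/13, fell with PDGF-BB (−0.37 ± 0.08 and −0.26 ± 0.08, adjusted p = 0.014 and 0.043) and with both (−0.26 ± 0.08 and −0.29 ± 0.08, adjusted p = 0.045 and 0.02). With S100A4 edgeR called 0 on groups alone (1 at an unadjusted p under 0.05), and with the block ARHGEF11 rose (0.20 ± 0.05, block adjusted p = 0.02) while the adenylyl cyclases ADCY9 (−0.22 ± 0.05, block adjusted p = 0.017) and ADCY7 (−0.14 ± 0.04, block adjusted p = 0.024) fell. The block gave 2 higher and 8 lower of 14 with PDGF-BB and 1 higher and 9 lower with both, where 24.5% and 28.6% of all genes were called lower.

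Of 7 receptor kinases and arrestins GRK2, which phosphorylates active receptors, rose with both proteins (0.34 ± 0.08, adjusted p = 0.017), and edgeR called 0 with PDGF-BB or S100A4 on groups alone (1 and 0 at an unadjusted p under 0.05). With the block GRK2 (0.26 ± 0.05, block adjusted p = 0.00033) and its relative GRK6 (0.12 ± 0.05, block adjusted p = 0.037) rose with PDGF-BB. Among 8 proteins of the G-protein cycle GPSM2, which binds GDP-loaded Gi subunits, fell. It was at 21.7, 15.7 and 17.1 CPM in control, 9.96, 6.48 and 8.80 CPM with PDGF-BB, 19.4, 14.6 and 17.1 CPM with S100A4 and 6.48, 7.62 and 5.99 CPM with both. The fall was 2.16-fold with PDGF-BB (−1.11 ± 0.19, adjusted p = 0.0034) and 2.71-fold with both (−1.44 ± 0.19, adjusted p = 0.00058). With S100A4 edgeR called 0 of the 8 in either fit (0 and 1 at an unadjusted p under 0.05). Over the 5 lists the median log2 changes with PDGF-BB lay between −0.29 and 0.16, against −0.02 over all tested genes.

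**Figure D5:**
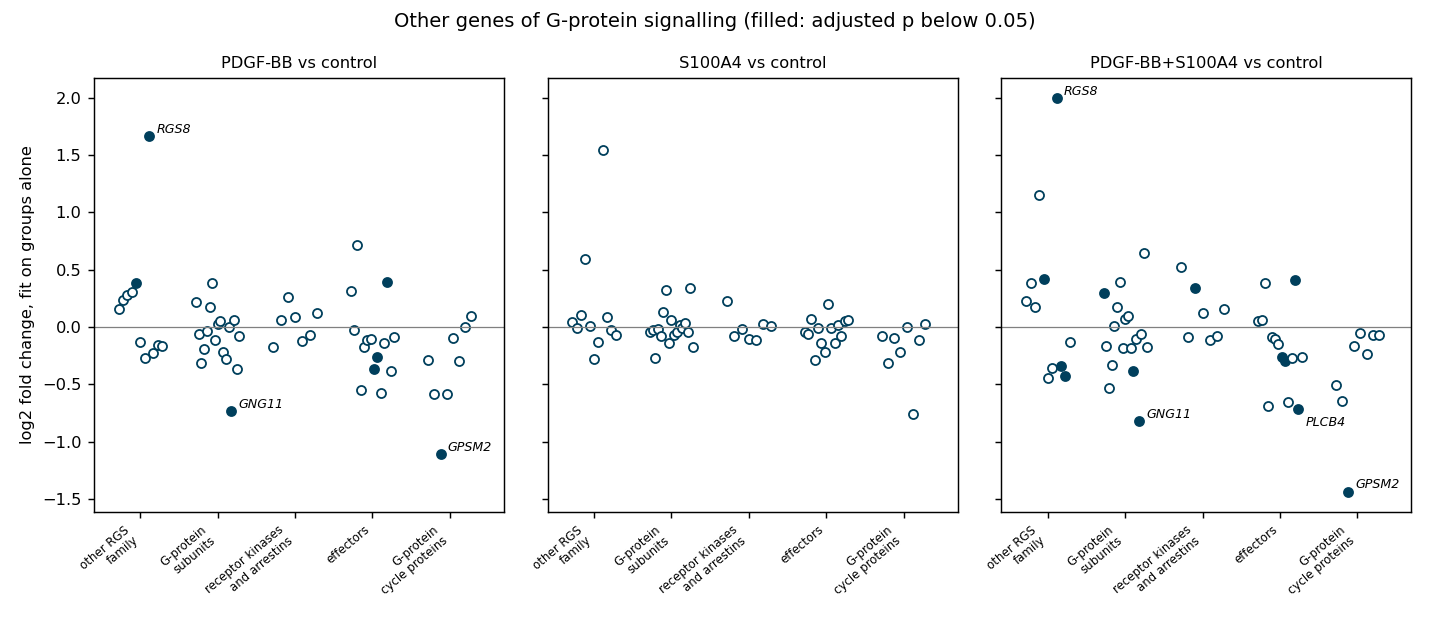
Log2 fold changes from the fit on groups alone for the tested genes of 5 lists of G-protein signalling (11 other RGS-domain genes, 17 subunits, 7 receptor kinases and arrestins, 14 effectors, 8 cycle proteins) in the 3 comparisons with control; filled points have an adjusted p below 0.05. GPSM2 is the lowest called point in both comparisons that include PDGF-BB, no point is filled for S100A4, and RGS8 rests on 4 to 7 counts per control library.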

How the data were processed

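The members and gene lists were chosen with earlier results of these data known. The authors deposited raw read counts by gene. Per the submitters' processing notes, the tools were featureCounts 1.4.6, STAR 2.4 and CASAVA 1.8.2, on the build Sscrofa11.1. The sources used here give no annotation release, strand setting or treatment of multiply mapped reads, so counts of overlapping or antisense genes are uncertain. Identifiers were matched to symbols for 14572 of 21153 genes. Coordinates are those of RefSeq genes on Sscrofa11.1, matched by symbol.

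Genes were kept by filterByExpr (minimum count 10, by group), scaled by TMM, and tested with edgeR 4.0.16 (quasi-likelihood, two-sided, R 4.3.3) in a fit of all 12 libraries. Benjamini-Hochberg adjustment ran over the 12444 genes, with a threshold of 0.05. Standard errors were derived from the fold change and its F statistic. Log2 CPM used a prior count of 2.

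Replicate numbers were taken as pairing the libraries: deviations from group means correlated at 0.746 to 0.908 in the 18 same-numbered pairs and at −0.676 to 0.136 in the 36 others. Deviations within a group cancel for each gene, so high same-numbered correlations push the others towards negative values. No label ties numbers to animals, so the spread behind each p-value is that between libraries, which may be technical. Within each group libraries differed beyond sampling noise (chi-square per gene 22.0 to 159).

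From the 5 lists, up to 4 called genes with the smallest adjusted p were named per comparison with control, from the block fit where none was called. The scripts were tested on simulated counts. Alternatives were DESeq2 1.42.0, other scalings (upper quartile, RLE), other filters on low counts, the compared groups alone, the replicate block, and leaving out replicates or libraries. RGS3 was not analysed here, and no sequences were used.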

Additional observations from a re-analysis of the deposited data

How the results depend on the processing

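Of 582 values of the members under alternatives to the fit on groups alone, 13 lost and 20 gained a call, and no value past the threshold in either setting changed sign. Another 67 values that passed in neither setting changed sign, 0 of them for RGS16. RGS4 passed in its 3 called comparisons under each alternative. The number of members called with PDGF-BB (1) was 3 with the replicate block, 2 with upper-quartile scaling, 2 with the stricter filter (mean of 5 CPM or more, and 3 libraries at 1 CPM or more, which left 2 members) and 2 in DESeq2, and 1 to 2 when a replicate or library was left out (2 without replicate 2 of all groups or of control). With S100A4 (0) it was 2 with the block and 0 to 1 when one was left out (1 without replicate 2). With both proteins (3) it was 1 to 3 when one was left out: 1 without replicate 1, without replicate 3, or without replicate 3 of the combination. For both against PDGF-BB (0) the block gave 1. For both against S100A4 (1) it was 3 with the block, 2 with RLE, 2 with upper-quartile scaling, 2 with the stricter filter, 2 in DESeq2 and 1 to 2 when one was left out (2 without replicate 2, or without replicate 3 of S100A4). The replicate block changed no other count by over 1.5 times. Apart from the block, the share of all genes called under each alternative was not recorded. A change in these member counts can therefore not be set against a change over all genes.

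RGS16 with both proteins had an adjusted p of 0.052 with no filter and 0.077 with the compared groups alone. Without replicate 2 of all groups RGS16 passed with PDGF-BB (2.65, adjusted p = 0.0033) and with S100A4 (2.57, adjusted p = 0.023), and without control replicate 2 alone with PDGF-BB (3.31, adjusted p = 0.035). RGS12 with both proteins did not pass without replicate 1, 2 or 3 of all groups (adjusted p = 0.17, 0.06 and 0.063). Added after the data were seen, leaving out replicates in the block fit gave 1 member with S100A4 in place of 2, also in DESeq2 with replicate number as a term (1), and 0 to 1 for both against PDGF-BB. Depth limits RGS16 in control (7 to 69 counts) and RGS5 in replicate 3 (7 to 16 counts).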

Other observations

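RGS2, RGS4, RGS5 and RGS16 each lie beside another RGS gene. The 2 nearest protein-coding RefSeq genes on each side were looked up after the members' values were seen. RGS4 and RGS5 are adjacent on chromosome 4, 42519 bases apart. RGS4 rose 13.7-fold with PDGF-BB while RGS5 gave 0.20 ± 1.34 (block interval −0.24 to 0.61). Beyond RGS5, 189 kb from RGS4, NUF2 gave −0.04 ± 0.63 (edgeR adjusted p = 0.99, block adjusted p = 0.72). On the other side of RGS4, 170 kb away, CCDC190 gave 0.98 ± 0.53 with PDGF-BB (adjusted p = 0.29, block adjusted p = 0.0086), at no more than 39 counts per library. HSD17B7, 330 kb away, rose (0.75 ± 0.20, edgeR adjusted p = 0.03), where 9.09% of all tested genes were called higher. Among the tested neighbours without an RGS name, only HSD17B7 passed with PDGF-BB on groups alone. With the block CCDC190 and UCHL5, beside RGS2, also passed (UCHL5 block adjusted p = 0.0053). RGS16 and RGS8 are adjacent on chromosome 9, 18.6 kb apart, and both had higher mean levels in each treated group than in control, RGS8 from 4 to 7 counts per control library. RGS13 and RGS1, which follow RGS2 on chromosome 10, had at most 5 and 4 counts in any library.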
